A study of Mus musculus with 67 samples.

Results

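The genes described here are those of the ubiquitin-proteasome system that could be read on a cDNA filter array in mouse cerebral cortex. The rule uses gene names and no difference between groups: a probe had to carry exactly 1 gene symbol in the platform annotation, starting with Psm, Ube, Usp, Uch, Fbx or Cul followed by a digit, and the probe with the highest mean z-score stood for its gene. This gave 80 genes of the 4209 that the array could name, namely 18 Psm, 18 Ube, 27 Usp and Uch and 17 Fbx and Cul genes. Expression was measured in samples labelled as 67 C57BL/6 mice, 1 array each, with total RNA of cerebral cortex, radiolabelled (33P per the labels; the study's methods name another phosphorus isotope) and hybridised to a nylon filter of spotted cDNA clones. The deposited value is a z-score, the distance of a probe from the mean of its own array in SDs of that array. A difference is therefore in z units and cannot be read as a fold change, and the z-scores of 2 genes cannot be ranked against each other as levels of RNA.

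The CR mice had regular feed until 13 weeks of age and then fortified feed at 90%, 75% and finally 60% of the regular amount, by the labels. The study's methods state the start as an age 1 week higher. The AL mice had regular feed without restriction for life. Juveniles were AL only: 5 mice of 17-21 days (3 females, 2 males) and 5 of 33-44 days (2 females, 3 males). At 6 months (169 to 194 days) there were 9 CR mice (5 females, 4 males) and 10 AL mice (5 of each sex), and at 16 months (472 to 499 days) 10 CR and 10 AL mice (5 of each sex in both diets). At 24 months (673 to 743 days) there were 8 CR mice (5 females, 3 males) and 10 AL mice (5 of each sex). The 3 CR males of 24 months were all 673 days old, while the AL males of that group were 714 to 743 days old.

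Proteins marked for destruction receive a chain of ubiquitin, which is activated by an E1 enzyme, carried by an E2 conjugating enzyme (most Ube genes) and placed on the target by an E3 ligase. Many E3 ligases are built on a cullin scaffold (Cul), with an F-box protein (Fbx) that binds the target. Deubiquitinating enzymes (Usp and Uch) remove or trim the chain, and the proteasome (Psm), a barrel of alpha and beta rings capped by a regulatory particle, unfolds and cuts the protein. In neurons the system is known for its part in synaptic protein turnover, and ubiquitin-positive inclusions are a feature of several neurodegenerative diseases.

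Psmc3ip, Psme3ip1 and Uspl1 met the name rule without belonging to the machinery: they are a partner of recombinases in meiosis, a protein that binds a proteasome activator and a SUMO peptidase. They were kept, because the rule does not remove them. Fbxw15, Fbxw19 and Fbxw22 belong to a cluster of closely similar F-box genes known from oocytes, so signal from a related copy on a cDNA clone cannot be told apart from their own. Of the marker genes of cortical cell types only a few could be named on this array. They were 1 of 13 neuronal markers (Nefl, mean z-score 0.25) and 3 of 8 astrocyte markers (-0.63 to 0.77). The others were 2 of 10 oligodendrocyte markers (-1.15 and -1.14) and 3 of 9 microglial markers (-0.87 to 0.77). Of the measured markers of choroid plexus and meninges 2 of 3 read above 0, and of red cells 2 of 4. The tissue label was therefore checked on few genes, with values on both sides of the array mean. In a piece of tissue, fewer cells of one type and less RNA per cell cannot be told apart.

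RefSeq promoters (GRCm38.p6, 250 bases before to 50 after the start site) were found for 67 of the 80 genes, in 79 windows. Those of Fbxl6, Fbxo15, Fbxo3, Fbxw22, Psmd7, Ube2d2a, Ube2g2, Ube2o, Usp1, Usp33, Usp53, Usp9x and Uspl1 are not shown. The windows were searched on both strands for 5 motifs, whose matches may overlap: TGACNNNGC, the core of the antioxidant response element read by Nfe2l1 and Nfe2l2, CCGGAAG, an ETS-family motif, CCAAT, the NF-Y motif, GGGCGG, the Sp1 motif, and CACGTG, the E-box. CCGGAAG stood in 8 of the 18 Psm windows (44.4%), against 17.6% of the windows of all named genes of the array and 8.86% of all windows in the table. The same motif was in 27.3% of Ube windows, 22.7% of Usp and Uch windows and 11.8% of Fbx and Cul windows. TGACNNNGC stood in 11.1% of Psm, 18.2% of Ube, 22.7% of Usp and Uch and 0% of Fbx and Cul windows, against 13.6% for the array's named genes and 12.4% for all windows. CCAAT was in 17.7% of the 79 windows, against 36.9% for named genes and 37.4% for all. It was in 38.9% of Psm, 13.6% of Ube, 13.6% of Usp and Uch and 5.88% of Fbx and Cul windows. GGGCGG was in 69.6% of the 79 windows, against 63.9% and 35.7%. Its shares were 50% of Psm, 86.4% of Ube, 68.2% of Usp and Uch and 70.6% of Fbx and Cul windows. CACGTG was in 7.59% of the 79 windows, against 10.8% and 7.15%. Shown are 5 promoters: Psmb5 (chr14:54617946-54618245, minus strand), a catalytic subunit, Psmd12 (chr11:107479278-107479577, plus strand), the one Psm gene with both of the first 2 motifs, and Psmd4 (chr3:95042565-95042864, minus strand), Psmg1 (chr16:95990911-95991210, minus strand) and Usp25 (chr16:77013819-77014118, plus strand), on which the age comparisons below turn. Capitals mark TGACNNNGC or CCGGAAG on either strand.
Psmb5: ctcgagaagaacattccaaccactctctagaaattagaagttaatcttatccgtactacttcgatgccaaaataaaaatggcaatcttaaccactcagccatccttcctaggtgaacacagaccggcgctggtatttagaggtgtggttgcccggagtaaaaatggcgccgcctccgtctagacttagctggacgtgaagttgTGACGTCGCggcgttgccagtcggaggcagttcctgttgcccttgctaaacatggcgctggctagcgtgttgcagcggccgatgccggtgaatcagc
Psmd12: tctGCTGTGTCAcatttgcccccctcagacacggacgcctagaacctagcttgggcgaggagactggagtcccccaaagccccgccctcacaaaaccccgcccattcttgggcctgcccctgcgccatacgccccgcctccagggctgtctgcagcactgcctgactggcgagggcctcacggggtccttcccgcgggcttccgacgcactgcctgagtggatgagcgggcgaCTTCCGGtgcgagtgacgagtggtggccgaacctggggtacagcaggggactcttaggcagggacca
Psmd4: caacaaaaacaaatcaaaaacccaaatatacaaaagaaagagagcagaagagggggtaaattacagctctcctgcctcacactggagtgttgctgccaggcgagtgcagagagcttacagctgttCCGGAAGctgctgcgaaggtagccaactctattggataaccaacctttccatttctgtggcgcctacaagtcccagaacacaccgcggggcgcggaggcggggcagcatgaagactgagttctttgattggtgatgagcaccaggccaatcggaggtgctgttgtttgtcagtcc
Psmg1: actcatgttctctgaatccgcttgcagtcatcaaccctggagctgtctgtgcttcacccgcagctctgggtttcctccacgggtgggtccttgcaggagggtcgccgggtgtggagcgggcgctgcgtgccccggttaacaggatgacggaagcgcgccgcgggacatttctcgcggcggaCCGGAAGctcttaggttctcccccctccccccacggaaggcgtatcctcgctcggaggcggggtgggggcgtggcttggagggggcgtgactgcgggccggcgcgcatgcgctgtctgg
Usp25: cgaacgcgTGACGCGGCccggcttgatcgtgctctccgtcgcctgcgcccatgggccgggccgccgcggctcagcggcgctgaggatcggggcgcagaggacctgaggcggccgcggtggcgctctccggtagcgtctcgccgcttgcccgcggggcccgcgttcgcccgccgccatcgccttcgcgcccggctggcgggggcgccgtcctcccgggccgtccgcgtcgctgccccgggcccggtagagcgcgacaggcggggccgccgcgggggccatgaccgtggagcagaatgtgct
In Psmd12 the first run of capitals is TGACNNNGC on the opposite strand and the second is CCGGAAG on the opposite strand. In Psmb5 and Usp25 the capitals are TGACNNNGC, and in Psmd4 and Psmg1 they are CCGGAAG. A match describes the letters of the window and does not show that a factor binds there.

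None of the 80 ubiquitin-proteasome genes passed an adjusted p of 0.05 in any of the 13 comparisons (limma over all 8448 probes, Benjamini-Hochberg). The background was as sparse: 0.0947% of all probes passed for 33-44 days against 17-21 days AL and 0% in each of the other 12 comparisons. The smallest adjusted p of a member was 0.056, for Fbxw22 in the juvenile comparison. Over the 6 adult age and diet groups, the range of a gene's group means was 0.13 z units at the median member, while the SD of arrays within a group was 0.21 at the median member, the same as the 0.21 of all probes. In 69 of the 80 genes the range of adult group means was smaller than the SD within groups. A mean over several arrays varies less than a single array does, and the share over all probes was not counted. The number is therefore not read as a steadiness particular to these genes. The widest range, 0.84, belonged to Usp7 and the narrowest, 0.04, to Ube2q1.

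**Figure D1:**
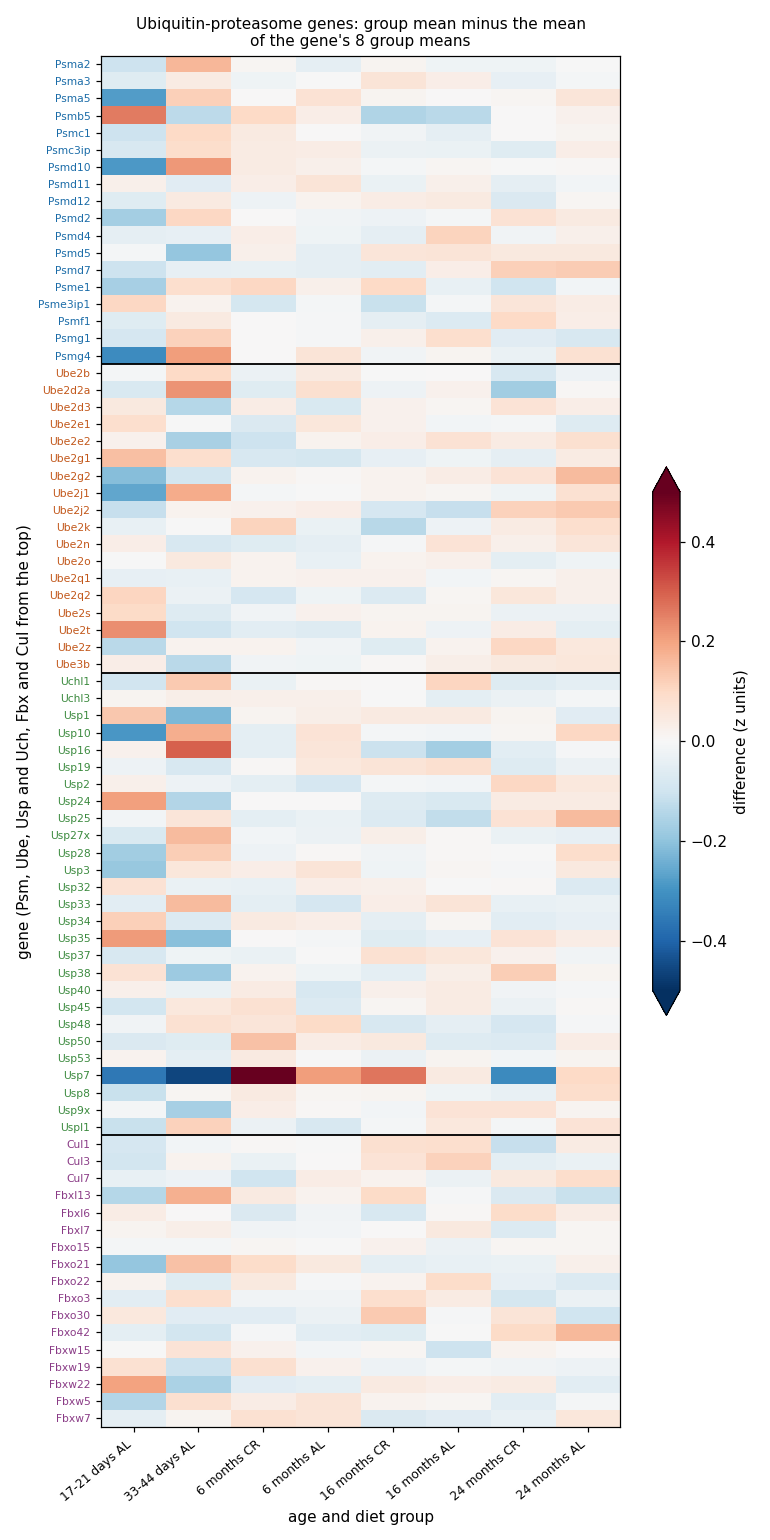
Group means of the 80 genes by age and diet, each minus the mean of that gene's 8 group means (colour, z units; rows are genes, ordered by subgroup). The strongest colours stand in the 2 juvenile columns, with 5 arrays each, and in the row of Usp7, whose adult means ranged over 0.84 z units.

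Without adjustment, 7 members had p under 0.05 between 33-44 and 17-21 days (background 14% of probes), 3 of them higher at 33-44 days (background 4.76%) and 4 lower (9.28%). Between 24 and 16 months AL there were 4 (6.57%), 2 higher (2.05%) and 2 lower (4.52%). Between 6 months and 33-44 days there were 2 (5.31%), both higher (3.1%, with 2.21% of probes lower), and between 16 and 6 months AL 2 (3.04%), 1 higher (2.19%) and 1 lower (0.852%). Between 24 and 6 months AL there were 2 (2.89%), 1 higher (0.982%) and 1 lower (1.91%), and between 24 and 16 months CR 0 (4.15%). For CR against AL there was 1 at 6 months (0.462%), which was lower (0.272%), 1 at 16 months (1.03%), which was lower (0.698%), and 0 at 24 months (1.04%). Over the 3 ages there were 2 (0.71%), 1 higher (0.379%) and 1 lower (0.331%). For females against males there was 1 (0.971%), which was lower (0.545%), and for the diet by age and sex by age terms 0 (0.888% and 0.0947%). With array cycle and batch as blocks the counts were 7 for 33-44 against 17-21 days (background 9.65%), 12 for 24 against 16 months AL (15.9%), 14 for 24 against 16 months CR (12.9%), 5 for 6 months against 33-44 days (9.79%), 6 for 24 against 6 months AL (10.9%) and 3 for 16 against 6 months AL (7.91%). For CR against AL they were 2 at 6 months (2.13%), 3 at 16 months (3.15%), 2 at 24 months (3.41%) and 2 over 3 ages (1.75%), and for females against males 5 (3.65%). The diet by age term had 2 (3.59%) and the sex by age term 0 (0.201%). A pair of near-identical arrays of 16 months AL, described below, bears on these counts: without both, the blocked count was 5 for 24 against 16 months AL (12.2%), 0 for 16 against 6 months AL (2.45%), 0 for CR against AL at 16 months (1.54%) and 0 over 3 ages (1.49%).

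**Figure D2:**
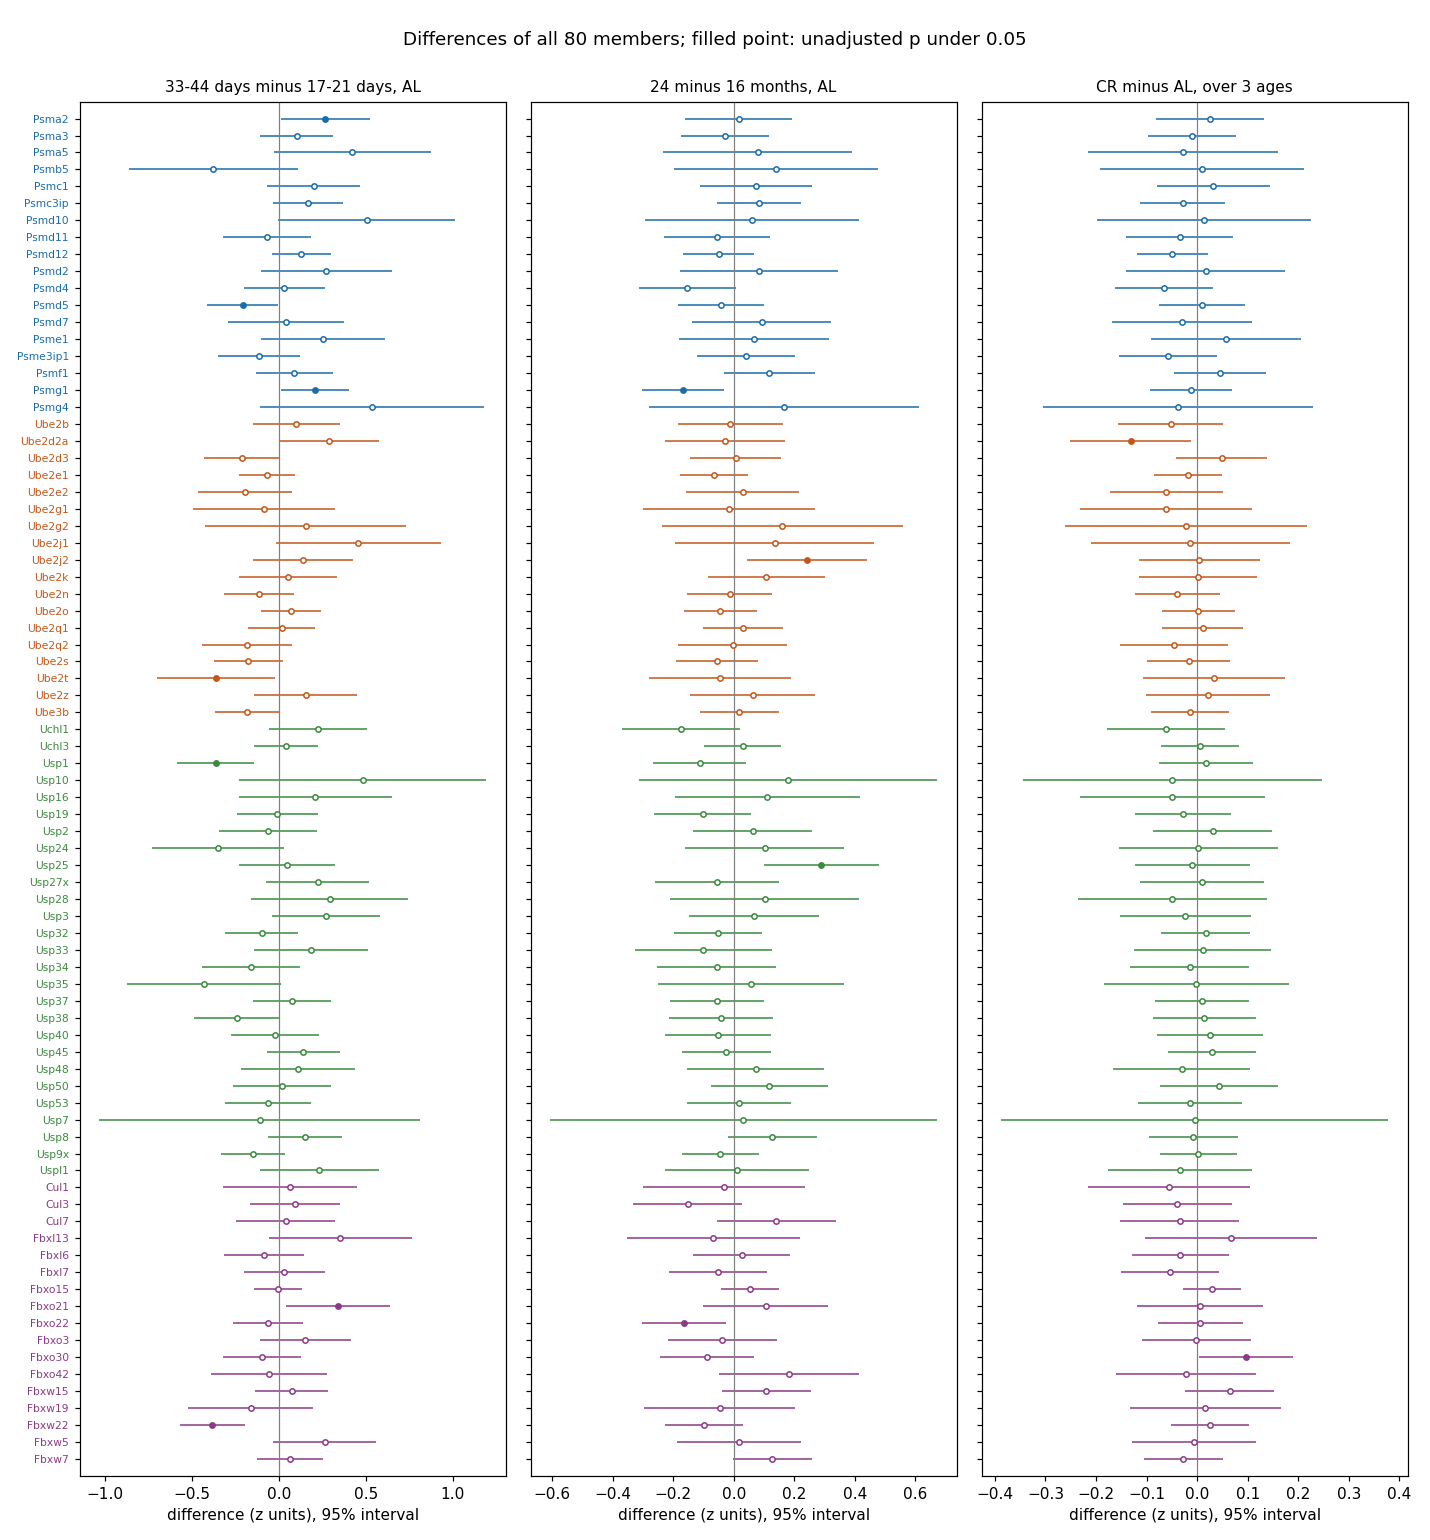
Difference of each gene with its 95% interval (z units, own scale in each panel) for 33-44 days minus 17-21 days AL, 24 minus 16 months AL and CR minus AL over 3 ages; colours are the 4 subgroups and filled points have an unadjusted p under 0.05. Filled points number 7, 4 and 2, and the intervals narrow from a median half-width of 0.26 to 0.18 and 0.11.

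The proteasome genes measured were 3 of the alpha ring (Psma2, Psma3, Psma5), the beta subunit Psmb5, which carries the chymotrypsin-like activity, the ATPase Psmc1, 4 further structural subunits of the regulatory particle (Psmd2, Psmd7, Psmd11, Psmd12), its ubiquitin receptor Psmd4, the assembly factors Psmd5, Psmd10, Psmg1 and Psmg4, the activator Psme1 and the regulator Psmf1. Their mean z-scores lay between -1.88 (Psmf1) and 1.87 (Psmc3ip), with 11 of 18 above 0. From 17-21 to 33-44 days, 14 of the 18 had a difference above 0, with a median of 0.15 z units, while 52.5% of all named genes had a difference above 0 and their median was 0.02. The titles number the arrays but name no batch. Arrays numbered 46 and higher (22 of 67) are treated here as a later batch. All 5 arrays of 17-21 days were in the earlier one, as were 3 of the 5 of 33-44 days. The 4 measured red cell markers (of 7 listed, 2 with a mean z-score above 0) had z-scores summing to -1.61 at 33-44 days, against -0.25 at 17-21 days. The 3 astrocyte markers summed to -0.07, against 0.24, and the 2 of oligodendrocytes to -2.46, against -2.25. Those of microglia (3) summed to 0.12, against 0.15, and those of choroid plexus and meninges (3) to 0.64, against 0.56. Nefl read 0.28, against 0.33. The part of these markers in the juvenile differences was not tested. With array batch as a block the count was 13 of 18 and the median 0.08, and 0 then had an unadjusted p under 0.05. Psmg1, a chaperone of alpha ring assembly, read -0.52, -0.48, -0.16, -0.12 and -0.11 on the arrays of 33-44 days, against -0.67, -0.46, -0.43, -0.42 and -0.41 on those of 17-21 days. Of the older arrays 3 lay above every younger one, and the groups overlapped. The difference was 0.21 (95% interval 0.01 to 0.41, adjusted p = 0.34), 0.13 with array batch as a block, 0.08 within the earlier batch, 0.15 without the array at -0.67 and 0.12 without 33-44 days AL female replicate 2. Psma2 read -0.90, -0.82, -0.46, -0.39 and -0.33 at 33-44 days, against -0.97, -0.92, -0.83, -0.80 and -0.74 at 17-21 days. Here too 3 older arrays lay above all younger ones, with a difference of 0.27 (0.01 to 0.52, adjusted p = 0.34) over both batches, 0.11 within the earlier batch and 0.14 without 33-44 days AL female replicate 2.

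Psmd5, which holds an ATPase module before it joins the base, had a difference of -0.21 in the same comparison and was named after its values were seen. The comparison of 6 months with 33-44 days AL shares the arrays of 33-44 days. There 4 of the 18 Psm genes had a difference above 0, with a median of -0.04, against 49.3% and -0.003 for all named genes. Within the earlier batch the Psm values were 11 of 18 and 0.01, against 53.9% and 0.02 for all probes.

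From 16 to 24 months AL, 12 of the 18 Psm genes had a difference above 0, with a median of 0.06, against 50.9% and 0.00 for all named genes. A pair of arrays of 16 months AL, male replicate 2 and female replicate 2, held nearly the same values (r = 0.99975, 4312 identical values, against 0.98921 and 330 for the next pair). They were averaged and counted once wherever the sexes are pooled below (n = 9), but kept apart in the fits, so a fitted difference can depart slightly from the difference of the printed means. Whether they are 2 mice or 1 hybridisation under 2 labels is not known. Without both of these arrays the Psm count was 10 of 18 and the median 0.02. The 3 measured microglial markers (of 9 listed) had z-scores summing to 0.49 at 24 months AL, against 0.32 at 16 months AL, the 3 of choroid plexus and meninges (of 7) 0.86, against 0.71, and the 4 of red cells -0.85, against -1.03. The 3 astrocyte markers summed to 0.52, against 0.46, the 2 of oligodendrocytes to -2.31, against -2.22, and Nefl read 0.14, against 0.25. The part of these markers in the differences between 24 and 16 months AL was not tested. Psmg1 read -0.67, -0.47 and -0.27 at 24 months AL (lowest, median and highest of 10 arrays), against -0.61, -0.26 and -0.16 at 16 months AL (of 9). Of the 10 older arrays 9 lay below the mean of the younger group, and 2 lay below all of it. The difference was -0.17 (-0.30 to -0.03, adjusted p = 0.65), -0.18 in the earlier and -0.15 in the later batch. It was -0.08 after correction for neighbouring spots, which subtracts from each probe the mean deviation of the spots around it on the filter.

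Psmd4, which binds ubiquitin chains on the regulatory particle, depended on the near-identical arrays. It read 0.05, 0.20 and 0.29 at 24 months AL, against -0.01, 0.22 and 0.92 at 16 months AL, and the 0.92 is the mean of these 2 arrays, both at 0.92, while the other 8 lay between -0.01 and 0.34. The difference between 24 and 16 months AL was -0.15 (-0.31 to 0.01, adjusted p = 0.79) with them and -0.01 without them. Between 16 and 6 months AL it was 0.20 with them and 0.05 without them. For CR against AL at 16 months it was -0.22 with them and -0.08 without them, the CR arrays reading -0.05 to 0.26. The diet by age term for Psmd4, 0.19 (-0.05 to 0.43), was 0.05 without them.

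Psmb5 and Psme1, named whatever their values, had wider intervals. Psmb5 averaged 0.80 ± 0.37 at 24 months AL (n = 10) and 0.65 ± 0.46 at 16 months AL (SD, n = 9), and its difference was 0.14 (-0.20 to 0.48, adjusted p = 1.00), and 0.07 without 16 months AL male replicate 5 or 0.23 without male replicate 1. The same gene differed by -0.65 between array batches, with a mean of 0.31 on the later and 0.99 on the earlier arrays. Psme1, one of the subunits of the PA28 activator, averaged -0.41 ± 0.22 at 24 months AL and -0.44 ± 0.26 at 16 months AL. Its difference was 0.07 (-0.18 to 0.32), and -0.03 without the near-identical arrays. Under caloric restriction, over 3 ages, Psm differences ranged from -0.07 to 0.06 with a median of -0.01. Psmd12 averaged -0.47 ± 0.14 in CR mice (SD, n = 27) and -0.43 ± 0.11 in AL mice (n = 29), a difference of -0.05 (-0.12 to 0.02). The difference of Psmb5 was 0.01 (-0.19 to 0.21) and that of Psme1 0.06 (-0.09 to 0.21).

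The Ube genes were 17 conjugating enzymes and the HECT-type ligase Ube3b. Mean z-scores lay between -1.38 (Ube2b) and 1.39 (Ube2z), with 8 of 18 above 0. From 17-21 to 33-44 days 9 of the 18 had a difference above 0 and the median was -0.03, against 52.5% and 0.02 for all named genes. Ube2t, the E2 of the Fanconi anaemia DNA repair pathway, read -0.82, -0.72, -0.22, -0.07 and 0.31 at 33-44 days, against -0.33, -0.05, 0.12, 0.16 and 0.24 at 17-21 days. The difference was -0.36 (-0.70 to -0.03, adjusted p = 0.33), -0.08 within the earlier batch, -0.21 without 33-44 days AL male replicate 3 and -0.03 after neighbour correction. Ube2d2a, a general E2 that works with many ligases, read -1.08, -0.92, -0.70, -0.60 and -0.11 at 33-44 days, against -1.06, -1.01, -0.99, -0.94 and -0.91 at 17-21 days. Its older arrays spread on both sides of the tight younger ones, with a difference of 0.29 (-0.001 to 0.58, adjusted p = 0.35), and 0.17 without 33-44 days AL male replicate 1.

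From 16 to 24 months AL the Ube genes split evenly, 9 of 18 above 0, with a median of 0.00, against 50.9% and 0.00 for all named genes. Ube2j2, an E2 anchored in the endoplasmic reticulum that serves the degradation of misfolded secretory proteins, read -0.98, -0.69 and -0.42 at 24 months AL (lowest, median and highest of 10), against -1.60, -0.94 and -0.60 at 16 months AL (of 9). Of the 10 older arrays 8 lay above the mean of the younger group. The difference was 0.24 (0.04 to 0.44, adjusted p = 0.65) over both batches, 0.24 in the earlier and 0.25 in the later batch, 0.16 without 16 months AL male replicate 1 and 0.06 after neighbour correction. Ube2e1 read 0.61, 0.96 and 1.05 at 24 months AL, against 0.89, 0.94 and 1.08 at 16 months AL, a difference of -0.07 (-0.18 to 0.05). The near-identical arrays of 16 months AL read 1.07 and 1.09, above the other 8 (0.89 to 1.03). A second Ube2e1 probe differed by 0.21 between the same groups, where the first differed by -0.05 in the pooled means. Against 6 months AL, where the first probe read 0.87, 1.05 and 1.15, the 24 month difference was -0.12 (-0.23 to -0.01, adjusted p = 1.00), and 0.01 with both probes averaged.

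Over the 3 ages, the Ube differences between CR and AL ran from -0.13 to 0.05 z units. Ube2d2a gave the widest difference, -0.13 (-0.25 to -0.01, adjusted p = 1.00), with a mean of -0.99 ± 0.26 in CR mice (n = 27) and -0.87 ± 0.15 in AL mice (SD, n = 29). It was -0.20 within the earlier and 0.05 within the later batch. At 24 months alone it was -0.20 (-0.41 to 0.02), the CR arrays reading -1.39 to -0.77 and the AL arrays -1.05 to -0.66. Ube2e2 differed by -0.06 (-0.17 to 0.05). At 6 months Ube2e1 read 0.62, 0.97 and 1.09 in CR mice, against 0.87, 1.05 and 1.15 in AL mice, a difference of -0.13 (-0.25 to -0.02, adjusted p = 1.00), and -0.02 with both probes averaged.

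Among the 27 Usp and Uch genes, Usp25 had the largest difference between 24 and 16 months AL of all 80 members. Their mean z-scores lay between -3.63 (Usp7) and 1.44 (Usp25), with 11 above 0. Usp25, a protease known for its part in endoplasmic reticulum and cytokine signalling, read 1.40, 1.59 and 1.82 at 24 months AL (lowest, median and highest of 10 arrays), against 0.99, 1.31 and 1.58 at 16 months AL (of 9). All 10 older arrays lay above the mean of the younger group, and 5 lay above every array of it. The difference was 0.29 (0.10 to 0.48) with an adjusted p of 0.61. It was 0.28 within the earlier and 0.30 within the later batch, and 0.27 without the near-identical arrays. With array cycle and batch as blocks the same difference had an adjusted p of 0.030, which made Usp25 the only member called there, 1 of 80, against a background of 1.09% of probes. Without the near-identical arrays that adjusted p was 0.13, and after neighbour correction the difference was 0.06. In CR mice Usp25 read 1.33, 1.52 and 1.64 at 24 months, against 0.91, 1.40 and 1.70 at 16 months, so the 24 month range lay inside that of 16 months. Against 6 months AL, at 1.06, 1.36 and 1.78, the 24 months AL difference was 0.19 (0.002 to 0.38, adjusted p = 1.00).

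**Figure D3:**
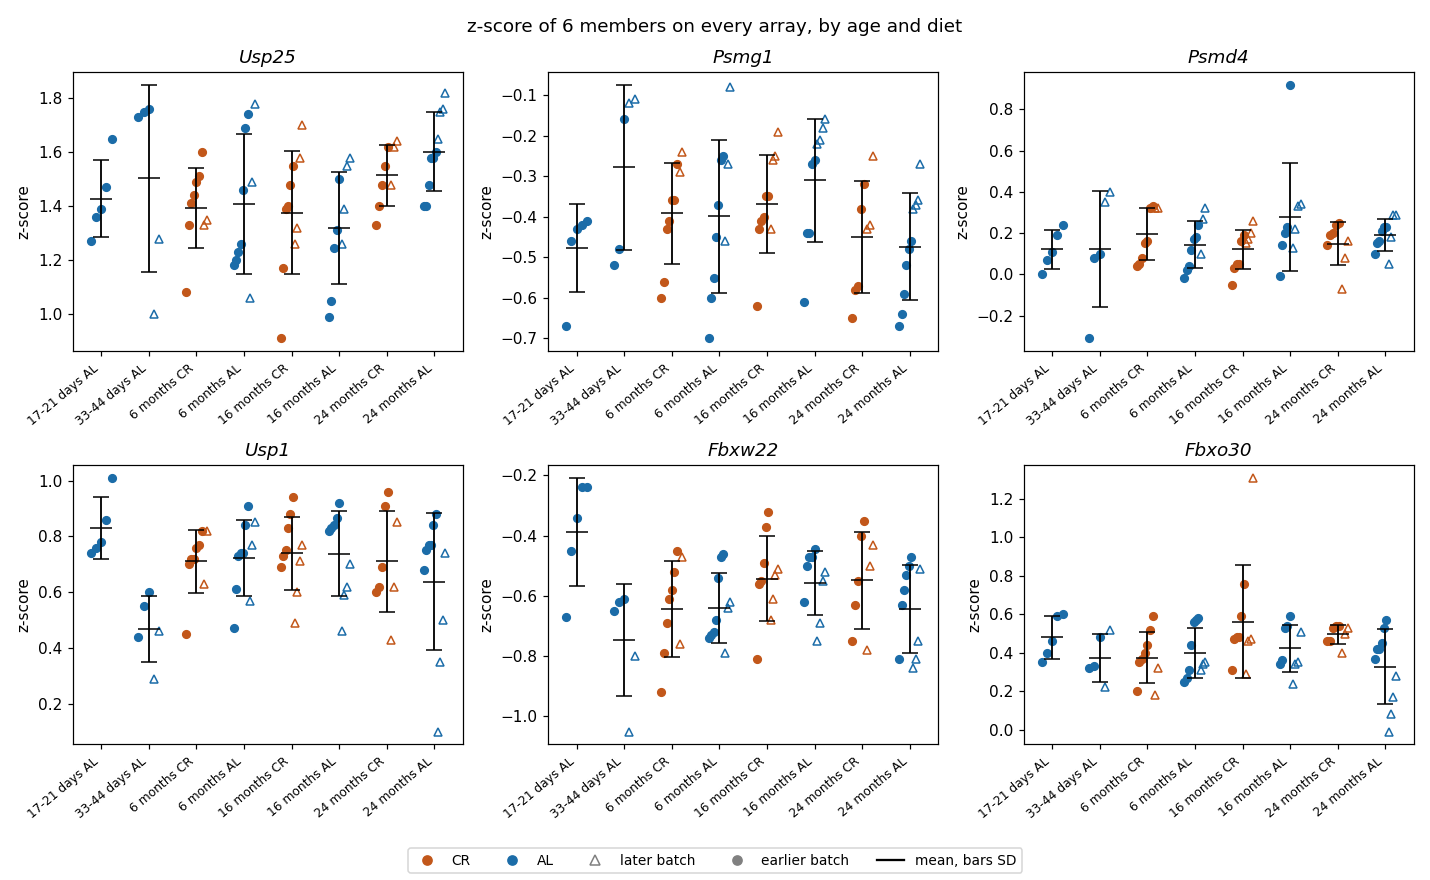
z-score of Usp25, Psmg1, Psmd4, Usp1, Fbxw22 and Fbxo30 on every array by age and diet (orange CR, blue AL; open triangles are the later batch, filled circles the earlier; black bars are mean and SD; the near-identical arrays of 16 months AL are drawn once, at their mean). All 10 arrays of 24 months AL lay above the 16 months AL mean for Usp25, Psmd4 has 1 point at 0.92 in 16 months AL, and Usp1 does not overlap between 33-44 and 17-21 days.

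Usp1, which removes ubiquitin from DNA repair proteins, was the 1 member of 80 (1.25%) whose juvenile groups did not overlap, against a background of 0.947% of probes. It read 0.29, 0.44, 0.46, 0.55 and 0.60 at 33-44 days, against 0.74, 0.76, 0.78, 0.86 and 1.01 at 17-21 days. The difference was -0.36 (-0.59 to -0.14, adjusted p = 0.14), -0.28 within the earlier batch and -0.04 after neighbour correction. At 6 months AL Usp1 read 0.47, 0.74 and 0.91, so that the difference to 33-44 days was 0.26 (0.07 to 0.45, adjusted p = 0.80). Both differences rest on the same 5 arrays of 33-44 days. Usp35 read -0.34, -0.19, 0.41, 0.80 and 0.90 at 33-44 days, against 0.50, 0.66, 0.69, 0.88 and 0.97 at 17-21 days. Of the older arrays 2 lay below 0 and the others within or near the younger range. The difference was -0.43 (-0.87 to 0.01, adjusted p = 0.36), -0.02 within the earlier batch and -0.18 without 33-44 days AL female replicate 2. Usp9x, a large deubiquitinase needed for neuronal development, read 0.22, 0.45 and 0.80 at 6 months AL, against 0.05, 0.29, 0.30, 0.37 and 0.42 at 33-44 days, a difference of 0.16 (0.005 to 0.32), and 0.07 as the mean of its 3 probes.

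Uchl1, the ubiquitin hydrolase that is one of the most abundant proteins of neurons, read -0.51, -0.31 and 0.04 at 24 months AL, against -0.47, 0.01 and 0.07 at 16 months AL. Of the 10 older arrays 7 lay below the mean of the younger group, and the difference was -0.17 (-0.37 to 0.02, adjusted p = 0.84), -0.24 in the earlier and -0.07 in the later batch. Both near-identical arrays of 16 months AL, which are in the earlier batch, read 0.07, above the other 8 (-0.47 to 0.03). In CR mice Uchl1 averaged -0.24 ± 0.22 (n = 27), against -0.19 ± 0.20 in AL mice (SD, n = 29), a difference of -0.06 (-0.18 to 0.06). Its relative Uchl3 differed by 0.03 (-0.10 to 0.16) between 24 and 16 months AL and by 0.01 (-0.07 to 0.08) between CR and AL. Usp9x differed by -0.04 (-0.17 to 0.08) between 24 and 16 months AL and by 0.00 (-0.07 to 0.08) between CR and AL. Over all 27 genes the diet differences ran from -0.06 to 0.04, the widest above 0 being Usp50, 0.04 (-0.07 to 0.16).

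The probe of Usp7, a deubiquitinase that stabilises the p53 regulator Mdm2, lay far below the array mean and had the widest spread within groups of all members, an SD of 0.74. It read -5.29, -3.78 and -3.54 at 24 months CR (lowest, median and highest of 8), against -4.85, -3.59 and -2.11 at 16 months CR (of 10). The difference was -0.67 (-1.36 to 0.02, adjusted p = 1.00), while in AL mice it was 0.03 (-0.61 to 0.67). Usp38 read -0.21, 0.24 and 0.38 at 24 months CR, against -0.24, -0.01 and 0.28 at 16 months CR, a difference of 0.18 (-0.01 to 0.36). Its diet by age term, 0.22 (-0.03 to 0.47), was the smallest p of the members for that term. At 6 months Usp45 read -0.34 to 0.17 in CR mice, against -0.48 to 0.09 in AL mice, a difference of 0.14 (-0.01 to 0.29).

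The F-box and cullin genes included the member nearest the threshold. Fbxw22 read -1.05, -0.80, -0.65, -0.62 and -0.61 at 33-44 days, against -0.67, -0.45, -0.34, -0.24 and -0.24 at 17-21 days. Every older array lay below the mean of the younger group, and 1 younger array, at -0.67, reached into the older range. The difference was -0.38 (-0.57 to -0.20, adjusted p = 0.056). With array batch as a block it was -0.34 with an adjusted p of 0.049, 1 of 80 members, against a background of 0.829% of probes. With array cycle and batch as blocks its adjusted p was 0.064 and 0 members were called, against 0.249% of probes. It was -0.25 within the earlier batch, and -0.10 after neighbour correction. Fbxo21 read 0.92, 0.93, 1.21, 1.28 and 1.38 at 33-44 days, against 0.38, 0.54, 0.89, 0.98 and 1.23 at 17-21 days, a difference of 0.34 (0.04 to 0.64, adjusted p = 0.32), of 0.02 as the mean of its 2 probes and of 0.22 without 17-21 days AL female replicate 3. In all, 10 of the 17 genes had a difference above 0 in this comparison, with a median of 0.04. For all named genes these were 52.5% and 0.02.

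From 16 to 24 months AL, 8 of the 17 had a difference above 0 and the median was -0.03, against 50.9% and 0.00 for all named genes. Fbxo22, a substrate receptor of an SCF ligase, read 1.04, 1.34 and 1.47 at 24 months AL, against 1.22, 1.40 and 1.65 at 16 months AL. Of the 10 older arrays 9 lay below the mean of the younger group, with a difference of -0.16 (-0.30 to -0.02, adjusted p = 0.67) that was -0.15 in the earlier and -0.19 in the later batch. Fbxw7, the receptor for cyclin E, Myc and Notch, read 1.10, 1.43 and 1.56 at 24 months AL, against 1.04, 1.27 and 1.48 at 16 months AL, a difference of 0.13 (-0.003 to 0.26). Between 16 and 6 months AL, where 6 months read 1.23, 1.39 and 1.62, the difference was -0.13 (-0.26 to -0.004), so that 24 and 6 months AL, at 1.10 to 1.56 and 1.23 to 1.62, overlapped over most of their range. The cullins gave small differences. Cul3, the scaffold for BTB-domain receptors, averaged 0.03 ± 0.20 at 24 months AL and 0.18 ± 0.10 at 16 months AL, a difference of -0.15 (-0.33 to 0.03). Cul1, the scaffold of SCF ligases, differed by -0.03 (-0.30 to 0.24).

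Fbxo30, an F-box ligase known from muscle wasting, gave the largest difference above 0 between the diets over 3 ages, 0.10 (0.003 to 0.19, adjusted p = 1.00). It averaged 0.48 ± 0.21 in CR mice (n = 27) and 0.38 ± 0.15 in AL mice (SD, n = 29), and the difference was 0.03 within the earlier and 0.17 within the later batch. At 24 months it read 0.40 to 0.54 in CR mice, against -0.01 to 0.57 in AL mice, a difference of 0.17 (-0.002 to 0.34). At 16 months 1 CR array at 1.31 stood apart from the other 9, at 0.29 to 0.76, while AL arrays ran from 0.24 to 0.59. The difference there was 0.15, and 0.07 without that array. Fbxw15 differed by 0.06 (-0.02 to 0.15) between CR and AL, and by -0.10 (-0.18 to -0.01) between females and males, with means of -0.71 ± 0.17 in females (n = 30) and -0.63 ± 0.14 in males (SD, n = 27). The sex difference was -0.10 without the near-identical arrays, which are labelled as 1 of each sex, and -0.03 after neighbour correction. Fbxw7, Cul1 and Cul3 differed by -0.03 (-0.11 to 0.05), -0.06 (-0.22 to 0.11) and -0.04 (-0.15 to 0.07) between the diets.

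The 95% intervals give the range of differences compatible with each estimate in the fits without blocks. They are not adjusted over probes, so they do not give the difference that a call would have needed. Array batch is part of the spread behind them. The median SD of members was 0.21 within groups and 0.15 within groups and batches. The near-identical arrays are counted separately in these intervals. Between CR and AL over 3 ages, the 95% interval lay within 0.3 z units of 0 for 77 of the 80 genes and within 0.5 for all 80. Between 24 and 16 months AL it lay within 0.3 for 51 genes and within 0.5 for 76. Between females and males over 3 ages and both diets it lay within 0.3 for 78 genes, and the differences ran from -0.11 to 0.17. Psme3ip1 had means of 0.28 ± 0.16 in females (n = 30) and 0.19 ± 0.16 in males (SD, n = 27), a difference of 0.09 (-0.004 to 0.19), and 0.09 without the near-identical arrays. For the sex by age term the median half-width was 0.37, and Ube2n and Usp33 had its smallest p, with terms of 0.20 (-0.08 to 0.48) and 0.18 (-0.27 to 0.63). Leaving out 1 array moved the Usp33 term to between 0.05 and 0.25, the lowest without 24 months AL male replicate 1.

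By the first steps of the selection described in the study's methods (z-ratio beyond 1.5 in either direction, unadjusted p under 0.05, and mean z-score positive; its later analysis of variance step was not run), 1 or 2 members were taken in 7 of the 11 comparisons to which it was applied. They were Usp25 (z-ratio 2.77) and Fbxo22 (-1.57) for 24 against 16 months AL, where 2.04% of all probes were taken, Usp1 for 33-44 against 17-21 days (-1.54, background 0.651%) and for 6 months against 33-44 days (1.96, 0.639%), and Ube2e1 for CR against AL at 6 months (-1.91, 0.343%). Fbxo30 was taken for CR against AL at 24 months (2.05, 0.485%) and over 3 ages (2.33, 0.355%), and Psme3ip1 for females against males (2.12, 0.651%). With 80 genes, 1 gene is 1.25%. The unadjusted p of these steps came from each probe's own residual spread, without the moderation behind the intervals above. Fbxo30 at 24 months and Psme3ip1 passed it although their moderated intervals reach 0. The reason for this was not tested.

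For most of these genes array batch went with larger differences than age did. The 22 later arrays differed from the 45 earlier ones, with group taken into account, by 0.22 z units at the median member, in either direction, and by 0.22 at the median probe of the array. In 65 of the 80 genes the batch difference was larger than the difference between 24 and 16 months AL. The share over all probes was not counted. With the same median of 0.22 in members and in all probes, the size of the batch difference is not particular to these genes. Usp10 averaged 0.95 on the later and 0.01 on the earlier arrays, Psmg4 0.76 and 0.00, and Ube2g2 0.74 and 0.02, while Usp25 averaged 1.48 and 1.41. Each of the 4 groups of 16 and 24 months AL had 3 earlier and 2 later arrays, so that comparison is balanced for batch.

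**Figure D4:**
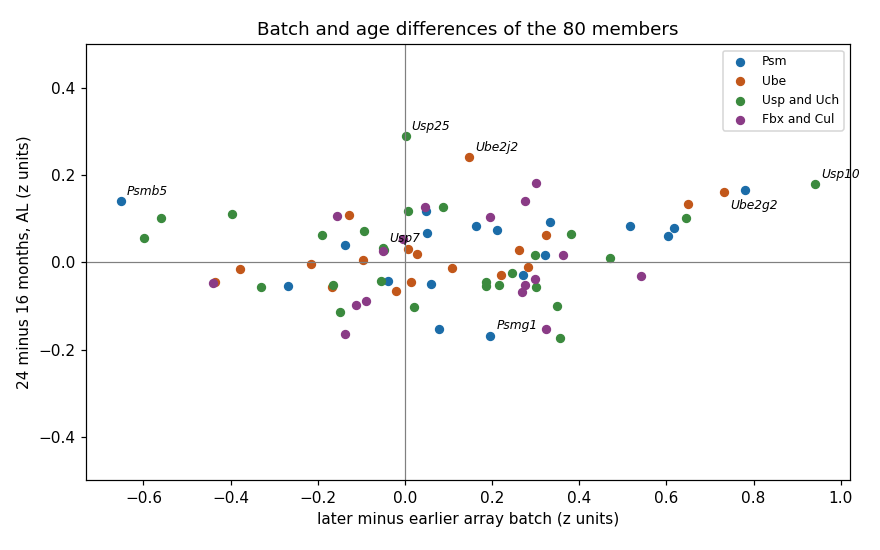
Difference between later and earlier arrays (x axis, z units) and between 24 and 16 months AL (y axis, z units, same scale) for the 80 genes, coloured by subgroup. The cloud is wider than it is tall: batch differences reach from -0.65 (Psmb5) to 0.94 (Usp10), age differences from -0.17 to 0.29 (Usp25).

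From mouse to mouse the median correlation between genes was small in each subgroup, while single pairs of members reached 0.92 (Fbxo21 and Psmd10). A median of signed values does not show how closely single pairs correlate. Across 67 arrays, after removing the mean of each group within each run of arrays, the median correlation was -0.03 over the 153 pairs of Psm genes, 0.04 for Ube, 0.02 for Usp and Uch and -0.01 for Fbx and Cul, against -0.01 over all pairs of named genes. Different probes of 1 gene were no closer: 17 genes had more than 1 probe, and over their 19 probe pairs the median correlation was -0.01, with 4 pairs above 0.3 and 10 below 0. The 2 probes of Psmc1 correlated at 0.65 and those of Ube3b at 0.36, while those of Fbxo21 correlated at -0.41. The difference between 24 and 16 months AL had the same sign in both probes of 9 of the 19 pairs. The identity of the clones behind these probes was not tested.

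Other genes of the pathway, from a list of ubiquitin-like modifiers, E1 enzymes, ligases, adaptors and chaperones, gave a like picture. Of 57 measured, 0 passed the adjusted threshold in any comparison. Between 24 and 16 months AL, 2 had an unadjusted p under 0.05 and a difference above 0 (background 2.05%) and 3 one below 0 (4.52%), namely Anapc4 and Cdc16 of the anaphase-promoting complex, with differences of -0.24 and -0.20, and Rbx1, the RING subunit that the cullins carry, with -0.21. Above 0 were Smurf1 (0.15) and Sumo2 (0.27). Sumo2, a ubiquitin-like modifier, had an adjusted p of 0.68, and of 0.036 with array cycle and batch as blocks.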

How the data were processed

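Z-scores of 8448 probes on 67 arrays, labelled as 1 per mouse, were used as the authors deposited them. The authors made the deposited score values (z-scores) by z-transforming the filter intensities of each array before they were deposited, so every array has a mean near 0 and an SD near 1. The background correction is not given in the sources used here, and the spread between arrays limits the precision. Differences were tested with limma 3.58.1 (R 4.3.3): means of 16 age, diet and sex groups, 13 contrasts, empirical Bayes and Benjamini-Hochberg adjustment over all 8448 probes at 0.05. The set of genes and the gene lists were proposed with earlier results of these data known, although the rule for members uses gene names and no difference between groups. Genes named in the text were the 2 with the smallest p (in each subgroup for the 3 main comparisons), those called with array cycle and batch as blocks, those meeting the z-ratio, mean and p steps of the study's selection (unmoderated p), and a list of well-known members named whatever their values. Alternatives were quantile normalization, centring on the median, only probes with mean z-score above 0, only the compared groups, array batch (45 arrays before number 46, 22 from it) and cycle (5) as blocks, each batch alone, neighbour correction, all probes of a gene averaged, the near-identical arrays left out, and each array left out. The neighbour correction used a layout of 16 blocks of 24 rows and 22 columns, inferred from the spacing at which residuals repeat. The residual autocorrelation was 0.41 at 22 probes apart, 0.40 at 528 and 0.05 at 100. Up to 24 spots around each probe were used, all within its own block, so likeness between blocks is not corrected. Batch and cycle were set from the array numbers in the titles, which name neither. The fit was tested on simulated data. No per-sample column was left unassigned.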

Additional observations from a re-analysis of the deposited data

Results flagged for a closer look

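Among the named genes, 65 gene and group pairs had enough arrays to be examined for a sample far from the rest of its group, and 4 (6.15%) had one, where chance gives about 1 in 20. Fbxo30 read 1.31 on 1 array of 16 months CR, with the other 9 at 0.29 to 0.76, and without it the difference between CR and AL was 0.07 at 16 months, where it was 0.15 with it, and 0.07 over 3 ages, where it was 0.10 with it. Psmd4 read 0.92 in 16 months AL, the level of both near-identical arrays, with the others at -0.01 to 0.34. Psmg1 read -0.67 on 1 array of 17-21 days AL, with the others at -0.46 to -0.41, and the difference between 33-44 and 17-21 days was 0.15 without it and 0.21 with it. Usp7 read -5.29 on 1 array of 24 months CR, with the other 7 at -4.36 to -3.54, and the difference between 24 and 16 months CR was -0.45 without it and -0.67 with it.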

How the results depend on the processing

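The count of members past the adjusted threshold (limma) was 0 in all 13 comparisons. With array batch as a block it was 1 for 33-44 against 17-21 days AL (Fbxw22), and with array cycle and batch as blocks 1 for 24 against 16 months AL (Usp25). Cycle and batch as blocks without the near-identical arrays, chosen after seeing the data, gave 0 there. The z-ratio, mean and unadjusted p steps of the study's selection took 1 member for 33-44 against 17-21 days, 6 months against 33-44 days, CR against AL at 6 months, at 24 months and over 3 ages, and females against males, and 2 for 24 against 16 months AL. Leaving out 1 array gave 0 to 3 members for 33-44 against 17-21 days: Fbxw22, Usp1 and Usp38 (the last named after its values were seen) without 33-44 days AL female replicate 1, and Fbxw22 alone without 33-44 days AL male replicate 2 or 17-21 days AL female replicate 2. The later batch holds no array of 17-21 days and gave no value for that comparison. No paired analysis was possible because no label ties mice together and replicate numbers only follow accession order. That order runs with the array cycle for most samples, and the fits with array cycle as a block were made: with cycle and batch, 92 probes were called for 24 against 16 months AL, against 0 without blocks.

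Of the named differences, these changed sign under another setting, and the cause was not tested. For 33-44 against 17-21 days Ube2t was 0.0417 with neighbour correction and both blocks. For 24 against 16 months AL, Ube2e1 was 0.078 and Usp9x 0.0463 with all probes averaged, Psme1 was -0.032 without the near-identical arrays and -0.049 with both blocks as well, and Cul1 was 0.09 and Cul3 0.0075 within the later batch. For 24 against 6 months AL, Ube2e1 was 0.0115 with both probes averaged. For CR against AL over 3 ages, the later batch gave 0.045 for Ube2d2a, 0.0042 for Ube2e2, -0.0358 for Usp50, -0.0292 for Uchl3, -0.005 for Usp9x, -0.0492 for Psme1, 0.0058 for Cul1 and 0.0367 for Cul3. Neighbour correction gave -0.0037 for Fbxw15, -0.0029 for Uchl3 and -0.01 for Usp9x, and with both blocks as well -0.0035 for Fbxw15, -0.0082 for Usp9x, -0.0165 for Psmb5 and 0.0035 for Fbxw7. Usp9x was -0.0057 without the near-identical arrays. Psmb5 was -0.0139 with batch, -0.0222 with cycle and -0.0165 with both as blocks, -0.0396 within the earlier batch and -0.0359 with both blocks and without the near-identical arrays. The diet by age term of Psmd4 was -0.06 within the later batch. Leaving out 1 array gave -0.0008 to 0.0493 for Uchl3 and -0.0925 to 0.05 for Cul1 between 24 and 16 months AL, and -0.0054 to 0.0184 for Uchl3, -0.0079 to 0.0173 for Usp9x and -0.0208 to 0.0442 for Psmb5 between CR and AL.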

Other observations

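Some pairs of members correlated closely across the 67 arrays after group and batch means were removed. They are given as a description over arrays that share filters and scans. They were picked for their high values among 3160 member pairs, and the share of such values over all pairs of named genes was not counted. Fbxo21 and Psmd10 correlated at 0.92 and at 0.85 after neighbour correction, Fbxo21 and Psmg4 at 0.90 and 0.73, and Psmd10 and Psmg4 at 0.89 and 0.58. Fbxw7 and Usp3 correlated at 0.83 and 0.76. Fbxl6 and Ube2q2, in the same block and row of the inferred layout, correlated at 0.88 and at 0.21 after neighbour correction. The near-identical arrays lay outside the range of the other 8 arrays of 16 months AL in 24 of the 80 members. The share over all probes was not counted, so this number is not read as a trait of these genes.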
